A study of Arabidopsis thaliana with 32 samples.

Results

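The effect of zaxinone on root gene expression was set side by side in the Arabidopsis thaliana mutants d14 and max2, over the 1220 genes that the deposited tables of both mutants list, of 3443 genes listed in at least 1 of the 4 tables of the series. The d14 table lists 2336 genes, and 1514 genes are listed for max2. A gene was listed only if it changed between zaxinone and mock in that mutant, so the zaxinone effect within a mutant is a description here, and what was tested is the difference between the effects, d14 minus max2. Groups were roots of plants 5 weeks old, grown in hydroponic solution, 6 h after zaxinone (20 µM, in 1% acetone) or mock (1% acetone) was added to the medium. They were d14 with zaxinone, d14 with mock, max2 with zaxinone and max2 with mock, each with 4 libraries that the labels number as replicates. The labels name no allele or background for either mutant and do not say whether replicates are separate plants. P-values therefore measure only how these libraries spread, which may be technical.

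Zaxinone is a small apocarotenoid, made by cleavage of carotenoids, that was described as a growth regulator in rice. Strigolactones are perceived by D14, a hydrolase that serves as their receptor. MAX2 is the F-box protein of the ubiquitin ligase that acts downstream of D14, and it also serves KAI2, the related receptor of the karrikin pathway. The 2 mutants therefore share the loss of strigolactone signalling, while loss of MAX2 also cuts off the karrikin pathway. None of the 21 genes of a strigolactone and karrikin list, which holds D14, KAI2 and MAX2, stood in the d14 or the max2 table, so these transcripts give no check of the genotype labels. In the authors' deposited tables KAI2 was listed in kai2 (log2 fold change 1.68), MAX3, the carotenoid cleavage enzyme CCD7 of strigolactone synthesis, in Col-0 (1.92) and kai2 (1.64), and BBX20, a B-box factor, in Col-0 (-1.17).

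Library totals were 46.9 to 63.8 M fragments in d14 zaxinone, 52.3 to 73.9 in d14 mock, 49.5 to 55.7 in max2 zaxinone and 47.9 to 64.1 in max2 mock libraries. The 1220 genes held 5.95 to 7.34% of these totals in d14 zaxinone libraries and 4.23 to 4.62% in d14 mock libraries, against 5.59 to 6.85% and 4.5 to 5.6% in max2 zaxinone and mock libraries. The library d14 zaxinone replicate 1 stood apart from the other 3 of its group (chi-square per degree of freedom up to 354). In max2 mock, pairs with replicate 1 also had the largest values, 95.5 to 176, against 31.1 to 85.9 for the other pairs. Values without d14 zaxinone replicate 1 are given beside the named genes called in which it was far above the others or whose call was lost without it. Of shoot markers, LHCA4, LHCB4.1, PSBO1, PSBP-1 and PSBR were listed higher and RBCS2B lower in d14 (authors' deposited table), none of 29 was listed in max2, and their part in the results was not tested. PSBO2, a photosystem II gene outside these 29, was listed higher in d14 and in max2 (authors' log2 fold changes 3.83 and 1.84). Of 20 markers of root cell types WOX5, of the quiescent centre, was the 1 gene in both tables. Levels are in FPKM, fragments per kilobase of exon, scaled to the library total. The labels do not say whether the libraries kept the strand of the RNA. Among the named genes called, SOUL-1, AT4G33467, SRO4, AT4G10270, AT3G27480, AT2G35637, AT5G05430, KCS2, HRE1 and CBF3 are each overlapped by an annotated gene on the other strand. Their reads may therefore be shared with it. UGT73B4 is overlapped by AT2G15480 on its own strand, so reads may be shared in either case. Some named genes that were not called are overlapped too. In bulk roots, fewer cells of a type and less RNA per cell cannot be told apart.

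Most genes moved the same way in both mutants, and where the size differed it was larger in d14. The authors' deposited tables list 716 of the 1220 genes as higher in both mutants, 496 as lower in both, 2 as higher in d14 and lower in max2, and 6 as lower in d14 and higher in max2. A filter on low counts kept 1205 genes (707 higher in both, 490 lower in both, 8 opposed) and left out 15. The genotype by treatment term in edgeR passed an adjusted p of 0.05 for 149 genes, 12.4% of those tested, of which 122 were positive and 27 negative. Among the shared rises 120 of 707 (17.0%) rose by more in d14, and among the shared falls 21 of 490 (4.29%) fell by more in d14. No gene that moved the same way in both passed with the larger change in max2, and at an unadjusted p under 0.05 there were 2 such rises and 3 such falls, against 237 and 78 with the larger change in d14. All 8 opposed genes passed, but a gene listed with opposite signs had to differ by at least 2 on the log2 scale, so their calls follow in part from the listing.

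The median rise, over all 707 shared rises tested, was 2.16 on the log2 scale in d14 and 1.63 in max2, and the median fall over the 490 shared falls was -1.84 in d14 and -1.54 in max2. The fitted change was larger in d14 for 589 of the 707 rises (83.3%) and for 377 of the 490 falls (76.9%). The balance of positive and negative calls depended on the scaling: 81.9% of calls were positive with library totals, 68.5% with TMM over the shared genes (98 and 45), and 40.6% with DESeq2's own size factors (71 and 104), which moved the median difference by -0.11 and -0.29. Both of these scalings are computed from genes that were listed because they changed. With DESeq2's own size factors 69 shared rises and 96 shared falls were larger in d14, and 2 rises, AT1G72540 and AT4G19880, named after their values were seen, were called larger in max2 (-0.80 and -0.51). The total of 149 calls was 116 without d14 zaxinone replicate 1, 171 without max2 zaxinone replicate 2, 67 without d14 mock replicate 1, 92 without d14 mock replicate 3, 64 without max2 zaxinone replicate 1, 78 without max2 zaxinone replicate 3 and 68 without max2 mock replicate 3. Of the 149, 56 (4.65% of genes tested) passed with every one of the 16 libraries left out in turn, 42 of them shared rises, 6 shared falls and 8 opposed.

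**Figure D1:**
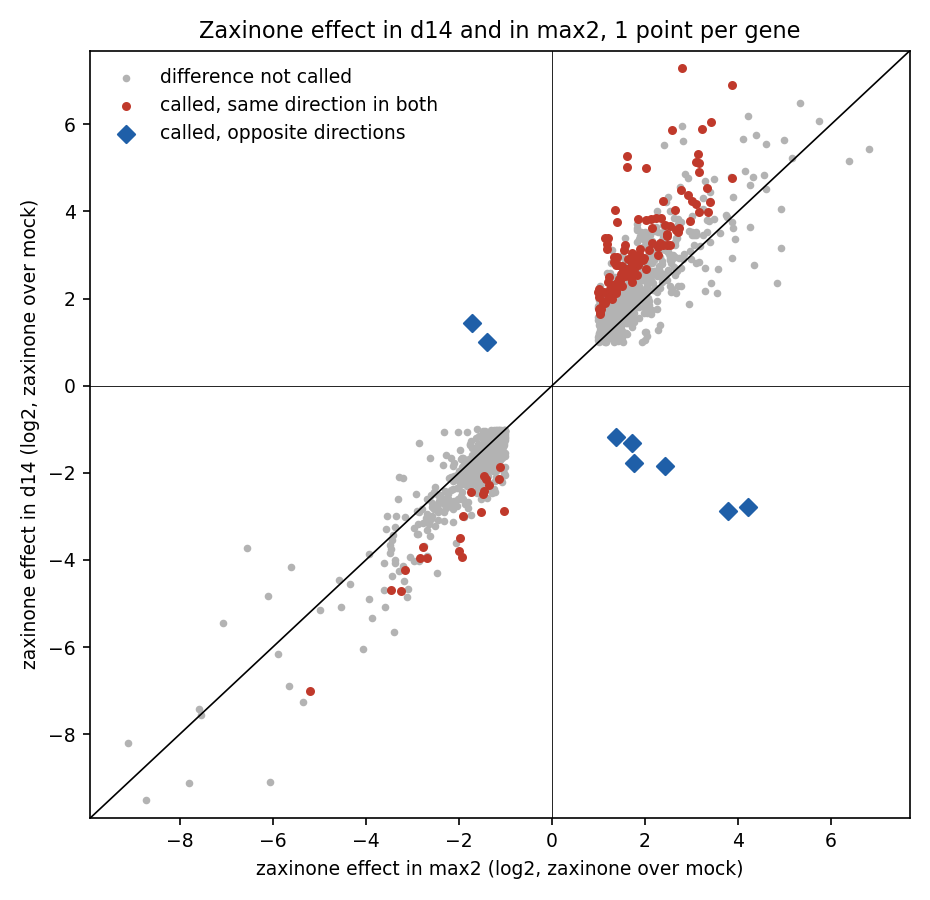
Zaxinone effect in d14 (vertical axis) against that in max2 (horizontal axis), both as log2 zaxinone over mock from the edgeR fit, with 1 point for each of the 1205 genes tested and a diagonal of equal effects. Red points are the 141 genes that moved the same way and differed between the mutants, and all lie farther from 0 on the d14 axis; blue diamonds are the 8 genes with opposite directions.

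The larger rises in d14 included genes that differed between the mutants with zaxinone and genes that differed in mock. Among the 120, the mutants differed in zaxinone libraries alone for 60 genes, in mock libraries alone for 32, in both for 7 and in neither for 21 at an adjusted p of 0.05. In mock libraries 107 of the 120 had the lower fitted level in d14, and in zaxinone libraries 113 had the higher fitted level in d14. A call rests on the genotype difference with zaxinone minus that in mock, so these counts follow in part from the choice of genes. Among the 21 larger falls, the mutants differed in zaxinone libraries alone for 15, in mock libraries alone for 2, in both for 1 and in neither for 3. With zaxinone, 141 of the 707 shared rises (19.9%) were called higher in d14 and 5 lower. Of the 490 shared falls, 2 were called higher in d14 and 135 (27.6%) lower. In mock libraries 6 shared rises were called higher in d14 and 75 (10.6%) lower, against 15 and 44 (8.98%) of the shared falls. Over all 1205 genes, d14 and max2 differed in zaxinone libraries for 289 (24.0%), 144 higher in d14 (12.0%) and 145 lower (12.0%). They differed in mock libraries for 143 (11.9%), 23 higher in d14 (1.91%) and 120 lower (9.96%). These counts moved with the libraries: without max2 zaxinone replicates 1 and 3 the zaxinone count was 154 and 180, and without d14 mock replicates 1, 2 and 3 and max2 mock replicates 2 and 3 the mock count was 40, 47, 88, 60 and 25.

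**Figure D2:**
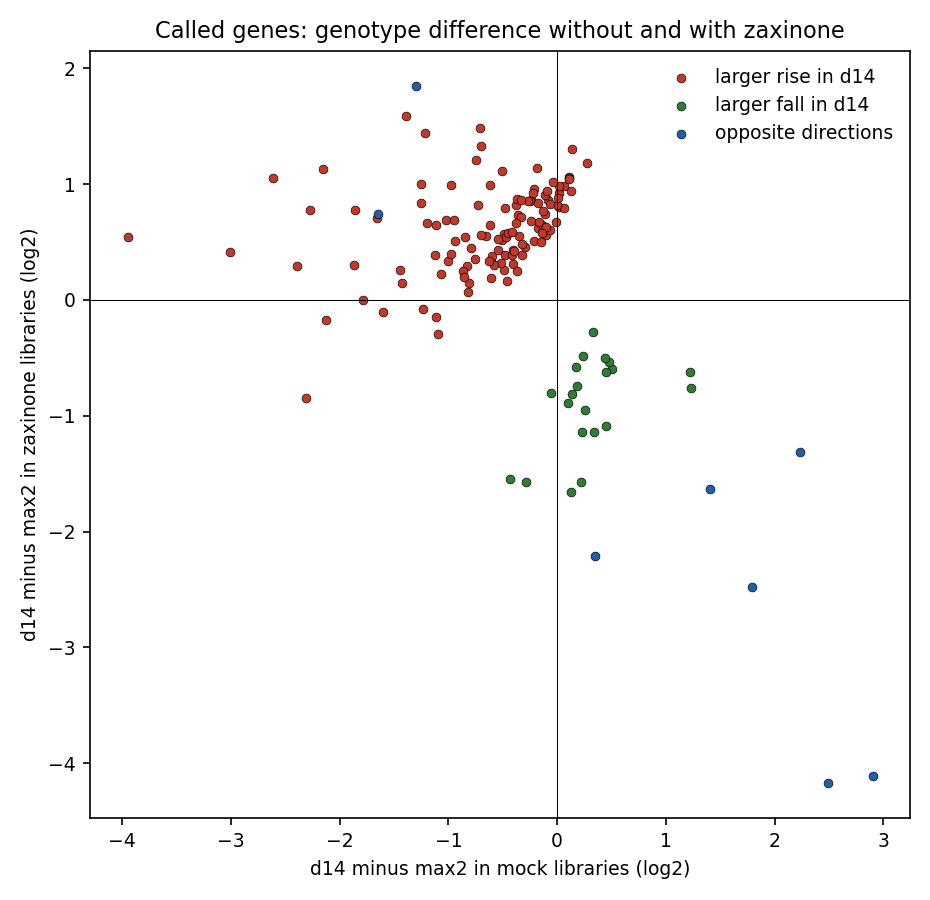
Log2 difference d14 minus max2 in zaxinone libraries (vertical axis) against that in mock libraries (horizontal axis) for the 149 called genes. Most of the 120 larger rises (red) lie above 0 with zaxinone and left of 0 in mock, and all 21 larger falls (green) lie below 0 with zaxinone. Genes were called on the vertical minus the horizontal value, so these positions follow in part from the choice.

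The larger rises with the lowest adjusted p were those of AT2G37870 and YLS9. AT2G37870 encodes a protein of the lipid-transfer and seed storage albumin family. AT2G37870 had 29.7, 38.1, 24.1 and 30.5 FPKM in d14 zaxinone libraries and 3.92, 3.39, 2.73 and 2.7 in d14 mock libraries. In max2, AT2G37870 had 13.8, 16.9, 18.4 and 19.3 FPKM in zaxinone libraries and 6.2, 6.66, 8.38 and 8.95 in mock libraries. No library of one group overlapped with another group: d14 was above max2 with zaxinone and below it in mock. Its effect was 3.26 ± 0.20 in d14 and 1.18 ± 0.19 in max2 on the log2 scale, each ± an approximate SE. The difference was 2.09 ± 0.26 (adjusted p = 2.4e-04). YLS9, a gene of the NDR1/HIN1-like family known from senescence and defence, had 125, 88, 57.7 and 68.7 FPKM in d14 zaxinone libraries and 1.06, 1.08, 1.72 and 1.82 in d14 mock libraries. In max2, YLS9 had 24.9, 36.8, 27 and 36.2 FPKM in zaxinone libraries and 2.7, 4.13, 3.87 and 2.65 in mock libraries. The d14 zaxinone libraries all lay above the max2 zaxinone libraries, and the d14 mock libraries all below the max2 mock libraries. The difference for YLS9 was 2.66 ± 0.35 (adjusted p = 2.4e-04).

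SOUL-1, which encodes a heme-binding protein of the SOUL family, had the largest positive difference among called genes with a mean of at least 1 FPKM in a group. It had 33.9, 8.49, 9.34 and 9.64 FPKM in d14 zaxinone libraries and 0.275, 0.137, 0.0724 and 0.534 in d14 mock libraries. In max2, SOUL-1 had 4.23, 9.49, 7.02 and 7.26 FPKM in zaxinone libraries and 0.929, 1.65, 1.6 and 0.578 in mock libraries. With zaxinone, d14 replicates 2 and 3 lay below max2 replicate 2 while every d14 library lay above the other 3 max2 libraries, and all d14 mock libraries lay below all max2 mock libraries. Its difference was 3.29 ± 0.73 (adjusted p = 0.0116), and the call held without d14 zaxinone replicate 1 and without each other library (adjusted p up to 0.0322). Without d14 zaxinone replicate 1 the difference was 2.54 (adjusted p = 0.0175). AT1G52342, with no named function in the annotation, had 72.4, 24.6, 23 and 17.9 FPKM in d14 zaxinone libraries and 0.959, 0.635, 0.703 and 1.13 in d14 mock libraries. In max2, AT1G52342 had 8.31, 18.5, 11.3 and 11.4 FPKM in zaxinone libraries and 1.09, 1.58, 2.02 and 0.966 in mock libraries. The same d14 library was the highest, and the difference of 2.19 ± 0.54 (adjusted p = 0.0175) passed with each library left out (adjusted p up to 0.046) and was 1.53 (adjusted p = 0.0258) without it, but was lost with voom.

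**Figure D3:**
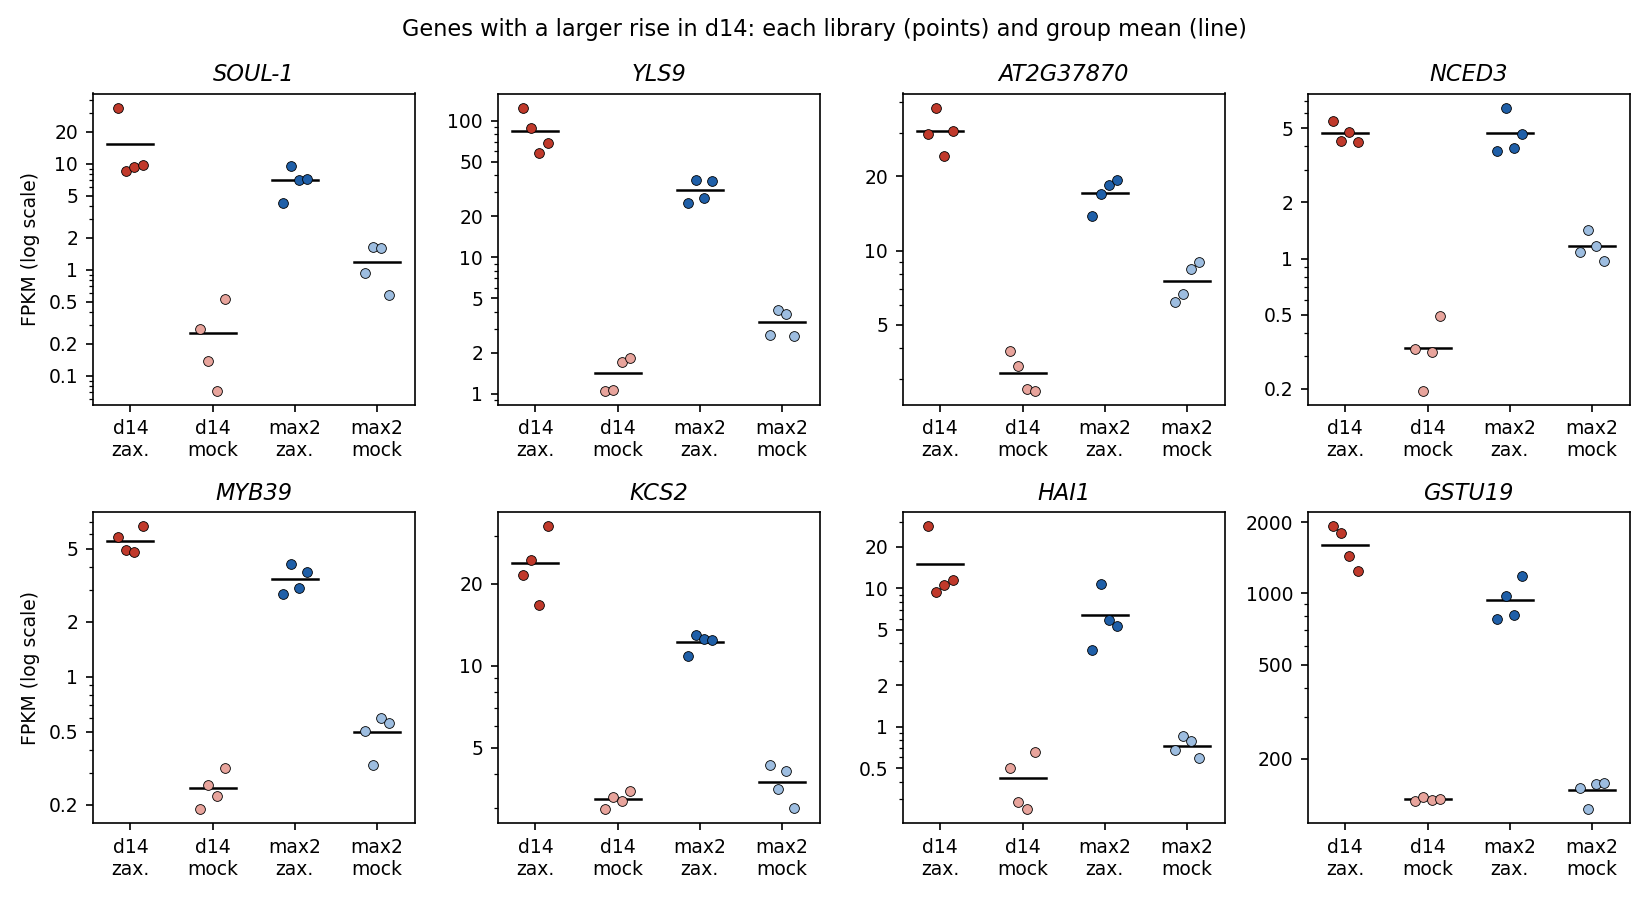
FPKM on a log scale in each of the 4 libraries of d14 zaxinone, d14 mock, max2 zaxinone and max2 mock (points) with the group mean (line) for 8 genes that rose by more in d14. SOUL-1 and NCED3 differ between the mutants mainly in mock libraries, KCS2 and GSTU19 mainly in zaxinone libraries, and YLS9 and AT2G37870 in both.

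Several of the other large positive differences lost their call when single libraries were left out. The sugar transporter gene SWEET3 had 3.51, 1.51, 1.26 and 0.787 FPKM in d14 zaxinone libraries and 0.0244, 0, 0.0954 and 0.0853 in d14 mock libraries. In max2, SWEET3 had 0.575, 1.05, 0.355 and 0.374 FPKM in zaxinone libraries and 0.202, 0.185, 0.0376 and 0.14 in mock libraries. The difference of 2.98 ± 0.89 (adjusted p = 0.0375) was lost in 8 of the 16 fits that left out 1 library, with an adjusted p of up to 0.0819 without d14 mock replicate 1. AT4G33467, of unknown function, had a difference of 3.06 ± 0.92 (adjusted p = 0.0382), lost in 8 of the 16 fits that left out 1 library, with an adjusted p of up to 0.0879 without max2 mock replicate 2. NADP-ME1, a cytosolic NADP-malic enzyme and the 1 called member of the glycolysis and fermentation list, had 2.06, 1.38, 2.3 and 1.75 FPKM in d14 zaxinone libraries and 0, 0.043, 0.034 and 0.0365 in d14 mock libraries. In max2, NADP-ME1 had 0.819, 1.43, 1.36 and 0.755 FPKM in zaxinone libraries and 0.0387, 0.074, 0.235 and 0.0701 in mock libraries. No library of NADP-ME1 exceeded 2.3 FPKM, d14 mock libraries were at or near 0 so that the fitted fold depends on the prior count, and its difference of 2.63 ± 0.73 (adjusted p = 0.0266) was lost in 3 of the 16 fits that left out 1 library, with an adjusted p of up to 0.0935 without max2 mock replicate 3. DIP2 (2.03 ± 0.62, adjusted p = 0.0382), the photosystem II subunit gene PSBO2 (1.98 ± 0.55, adjusted p = 0.0267), the peroxidase gene AT5G19880 (1.86 ± 0.56, adjusted p = 0.0382) and FLP1 (2.25 ± 0.71, adjusted p = 0.0443) were also among the 15 largest. Their calls were lost in 7, 5, 11 and 11 of the 16 fits with 1 library left out, at adjusted p up to 0.0883 (without max2 mock replicate 3), 0.0594 (without max2 zaxinone replicate 1), 0.0896 (without max2 mock replicate 2) and 0.096 (without d14 zaxinone replicate 1). Without d14 zaxinone replicate 1 the differences were 2.15 (adjusted p = 0.0539) for AT4G33467, 2.397 (adjusted p = 0.069) for SWEET3 and 1.52 (adjusted p = 0.0768) for DIP2. They were 1.35 (adjusted p = 0.0467) for PSBO2, 1.72 (adjusted p = 0.096) for FLP1 and 1.83 (adjusted p = 0.0547) for AT5G19880 without that library.

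Genes of abscisic acid rose in both mutants, and 6 of 19 response genes rose by more in d14, of which 2 held with each library left out. Abscisic acid is the hormone of water deficit, its synthesis is limited by cleavage of carotenoids, and its receptors act by holding back clade A protein phosphatases. All 19 shared genes of the response list were higher in both mutants, the median rise was 2.82 in d14 and 1.71 in max2 on the log2 scale, and the median difference was 0.96, against 0.47 over all shared rises. The 6 calls were 31.6% of the list, against 17.0% of all shared rises. KIN1, a cold and abscisic acid induced gene with a tandem copy, KIN2, that could share its reads, had 10.2, 4.54, 3.52 and 6.35 FPKM in d14 zaxinone libraries and 0.49, 0.323, 0.457 and 0.523 in d14 mock libraries. In max2, KIN1 had 2.24, 2.41, 5.28 and 5.1 FPKM in zaxinone libraries and 0.832, 0.87, 1.64 and 2.35 in mock libraries. All d14 mock libraries lay below all max2 mock libraries, the zaxinone libraries of the mutants overlapped, and the difference was 2.37 ± 0.56 (adjusted p = 0.016), held with each library left out.

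HAI1, a clade A phosphatase that restrains the hormone's signalling, had 28.1, 9.37, 10.6 and 11.4 FPKM in d14 zaxinone libraries and 0.507, 0.284, 0.254 and 0.656 in d14 mock libraries. In max2, HAI1 had 3.61, 10.8, 5.92 and 5.34 FPKM in zaxinone libraries and 0.679, 0.85, 0.782 and 0.591 in mock libraries. Its difference of 1.96 ± 0.53 (adjusted p = 0.0263) was lost in 4 of the 16 fits that left out 1 library, with an adjusted p of up to 0.0574 without max2 zaxinone replicate 1, and d14 zaxinone replicate 1 was far above the other 3 of its group (difference 1.45 (adjusted p = 0.0463) without it). RD29A, a gene of the dehydration and cold response, had 20.1, 9.18, 19.8 and 18.5 FPKM in d14 zaxinone libraries and 0.89, 0.919, 1.01 and 1.29 in d14 mock libraries. In max2, RD29A had 9.46, 18.21, 9.41 and 14.2 FPKM in zaxinone libraries and 2.22, 1.1, 1.72 and 3.07 in mock libraries. Zaxinone libraries of the mutants overlapped, while 3 of the 4 max2 mock libraries lay above all d14 mock libraries, and the difference of 1.38 ± 0.41 (adjusted p = 0.0379) was lost in 11 of the 16 fits that left out 1 library, with an adjusted p of up to 0.0863 without max2 zaxinone replicate 1. EM6, a late embryogenesis abundant gene, had 1.87, 2.2, 0.97 and 2.28 FPKM in d14 zaxinone libraries and 0.151, 0.345, 0.21 and 0.244 in d14 mock libraries. In max2, EM6 had 0.757, 0.925, 1.02 and 0.961 FPKM in zaxinone libraries and 0.503, 0.286, 0.464 and 0.195 in mock libraries. The zaxinone libraries of the mutants overlapped, and the difference of 1.61 ± 0.51 (adjusted p = 0.0463) was lost in 13 of the 16 fits that left out 1 library, with an adjusted p of up to 0.105 without max2 mock replicate 3. Without d14 zaxinone replicate 1 the RD29A and EM6 differences were 1.29 (adjusted p = 0.0613) and 1.60 (adjusted p = 0.0673). The other 2 calls, named after their values were seen, were LTI30, a dehydrin, at 1.06 ± 0.26 (adjusted p = 0.0175), held with each library left out, and PP2CA, a clade A phosphatase, at 0.65 ± 0.20 (adjusted p = 0.0402), lost in 10 of the 16 fits.

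NCED3, the carotenoid dioxygenase that limits abscisic acid synthesis under drought, differed between the mutants in mock roots. It had 5.48, 4.29, 4.79 and 4.19 FPKM in d14 zaxinone libraries and 0.328, 0.196, 0.316 and 0.491 in d14 mock libraries. In max2, NCED3 had 3.77, 6.44, 3.92 and 4.66 FPKM in zaxinone libraries and 1.09, 1.43, 1.17 and 0.965 in mock libraries. With zaxinone the mutants overlapped and the difference between them had an adjusted p of 0.998, while in mock libraries the d14 minus max2 difference was -1.79 on the log2 scale (adjusted p = 3.6e-04), with no overlap. The zaxinone effect was 3.80 ± 0.25 in d14 and 2.02 ± 0.23 in max2, a difference of 1.79 ± 0.33 (adjusted p = 0.0057) that held with each library left out. BCH1, the β-carotene hydroxylase 1 of xanthophyll synthesis, had 8.3, 6.12, 8.09 and 7.17 FPKM in d14 zaxinone libraries and 0.868, 0.662, 0.764 and 1.03 in d14 mock libraries. In max2, BCH1 had 3.55, 6.99, 5.15 and 4.4 FPKM in zaxinone libraries and 1.13, 1.62, 1.32 and 1.36 in mock libraries. The difference was 1.26 ± 0.29 (adjusted p = 0.016), and the call also held with each library left out. The other 2 shared genes of the carotenoid list were called in neither direction: ABA1, zeaxanthin epoxidase, at 0.09 (adjusted p = 0.869) and NCED2 at -0.58 (adjusted p = 0.814). NCED3 was the 1 called gene of 4 in the abscisic acid metabolism list, whose median difference was 0.00.

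Genes of suberin, the lipid and phenolic barrier of the endodermis, rose by more in d14 for 7 of the 14 shared members of their list. Among all shared rises, 120 of 707 (17.0%) did so. All 14 rose in both mutants, with a median of 2.41 in d14 and 1.71 in max2 on the log2 scale. The fitted rise was larger in d14 for each of the 14, and for 83.3% of all shared rises. Differences ranged from 0.57 to 1.71 with a median of 0.83, against 0.47 over all shared rises. Of the 7 calls, 3 held with each library left out. MYB39, a transcription factor that drives suberin genes in the endodermis, had 5.78, 4.92, 4.79 and 6.66 FPKM in d14 zaxinone libraries and 0.19, 0.255, 0.222 and 0.316 in d14 mock libraries. In max2, MYB39 had 2.83, 4.14, 3.04 and 3.74 FPKM in zaxinone libraries and 0.506, 0.33, 0.599 and 0.562 in mock libraries. Every d14 zaxinone library lay above every max2 zaxinone library, every d14 mock library lay below every max2 mock library, and the difference was 1.71 ± 0.32 (adjusted p = 0.0057).

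KCS2, a ketoacyl-CoA synthase that elongates the acyl chains of suberin, had 21.5, 24.4, 16.8 and 32.5 FPKM in d14 zaxinone libraries and 2.98, 3.31, 3.19 and 3.48 in d14 mock libraries. In max2, KCS2 had 10.9, 13, 12.6 and 12.4 FPKM in zaxinone libraries and 4.34, 3.52, 4.11 and 3 in mock libraries. Its mock libraries overlapped between the mutants, its zaxinone libraries did not, and the difference was 1.17 ± 0.25 (adjusted p = 0.01). GPAT5, an acyltransferase of suberin monomer synthesis, had 24.5, 26.1, 18.21 and 29.3 FPKM in d14 zaxinone libraries and 4.9, 5.43, 5.47 and 6.21 in d14 mock libraries. In max2, GPAT5 had 12.7, 16.1, 17.2 and 19.4 FPKM in zaxinone libraries and 5.99, 8.47, 9.46 and 6.14 in mock libraries. The difference was 1.03 ± 0.26 (adjusted p = 0.0175). Its relative GPAT7 differed by 1.03 ± 0.26 (adjusted p = 0.0206), and that call was lost without 1 library (adjusted p = 0.0503 without d14 mock replicate 1). The other 3 called members were CYP86B1, a fatty acid hydroxylase, ASFT, a feruloyl transferase, and FAR5, a fatty acyl reductase, at 0.67, 0.79 and 0.80 (adjusted p = 0.0393, 0.0349 and 0.0349), lost in 10, 7 and 8 of the 16 fits, each with its highest adjusted p without max2 zaxinone replicate 1. These 3 were named after their values were seen.

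Genes of detoxification, such as glutathione transferases and glycosyltransferases that conjugate foreign compounds, were far higher with zaxinone in both mutants, with a median difference below that of all shared rises. All 29 shared members were higher in both, with a median of 3.53 in d14 and 3.1 in max2, and the 7 that rose by more in d14 were 24.1% of the list, near the 17.0% of all shared rises. Of the 7, 1 held with each library left out, GSTU1 at 0.76 ± 0.19 (adjusted p = 0.0194), named after its value was seen. The median difference was 0.36, below the 0.47 of all shared rises, and members ranged from -1.56 to 1.43. With DESeq2's own size factors the list median was 0.09, against 0.19 over all shared rises. That scaling also lowered the medians of the suberin list, to 0.54, and the abscisic acid response list, to 0.66. GSTU19, a tau class glutathione transferase and an abundant transcript, had 1923, 1792, 1438 and 1239 FPKM in d14 zaxinone libraries and 133, 138, 134 and 136 in d14 mock libraries. In max2, GSTU19 had 777, 975, 813 and 1183 FPKM in zaxinone libraries and 150.1, 123, 157 and 159 in mock libraries. Mock libraries overlapped, every d14 zaxinone library was above every max2 zaxinone library, and the difference was 0.90 ± 0.23 (adjusted p = 0.0207), lost without 1 library (adjusted p = 0.0518 without max2 zaxinone replicate 1). GSTU22 (0.84 ± 0.23, adjusted p = 0.0273), UGT73B4 (0.82 ± 0.25, adjusted p = 0.0402) and GSTU8 (0.81 ± 0.23, adjusted p = 0.0267) were lost in 5, 11 and 6 fits, with an adjusted p of up to 0.0648, 0.0888 and 0.0678. Without d14 zaxinone replicate 1 the GSTU22 and UGT73B4 differences were 0.74 (adjusted p = 0.0509) and 0.77 (adjusted p = 0.0698). For UGT73B4, a glycosyltransferase, the mutants differed in mock libraries, at 0.745, 0.629, 0.579 and 0.972 FPKM in d14 against 1.52, 1.74, 1.62 and 1.45 in max2. Glutathione transferases of this class and the UGT73B genes are near copies of each other, and reads could be shared between them.

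Early stress and defence genes gave 3 more calls. ZAT12 and CBF3 were 2 of 5 genes of the touch and early stress list, all higher in both mutants. CYP71A12 was 1 of 6 of the salicylic acid and immune list, whose other 5 were lower in both mutants and not called. Among all shared rises 17.0% were called. ZAT12, a zinc finger factor of oxidative stress, had 230.2, 137, 127 and 121 FPKM in d14 zaxinone libraries and 13.5, 12.4, 13.9 and 15.1 in d14 mock libraries. In max2, ZAT12 had 85, 113, 87 and 122 FPKM in zaxinone libraries and 16.4, 18.6, 20.0 and 18.6 in mock libraries. The difference of 1.01 ± 0.26 (adjusted p = 0.0204) was lost without 1 library (adjusted p = 0.0508 without max2 zaxinone replicate 1), and it was 0.75 (adjusted p = 0.0276) without the high d14 zaxinone replicate 1. CBF3, a factor of cold acclimation, was close to the limit of detection, with 26, 22, 33 and 15 counts in d14 zaxinone libraries and 1, 1, 1 and 0 in d14 mock libraries, against 7, 20, 25 and 17 in max2 zaxinone and 3, 6, 8 and 6 in max2 mock libraries. Its call (adjusted p = 0.0169) therefore rests on 3 counts in the d14 mock group, its fitted fold depends on the prior count, and the call was lost with limma on log2(FPKM + 1). CYP71A12, a cytochrome P450 of indolic defence compounds, had 64.1, 39.5, 51.6 and 49.3 FPKM in d14 zaxinone libraries and 7.47, 5.75, 8.25 and 5.61 in d14 mock libraries. In max2, CYP71A12 had 34.9, 48.9, 53.1 and 38.6 FPKM in zaxinone libraries and 13.5, 11.7, 22.7 and 8.92 in mock libraries. The difference was 1.29 ± 0.33 (adjusted p = 0.0219), and the call was lost without 1 library (adjusted p = 0.0544 without max2 zaxinone replicate 1). CYP71A12 has a tandem copy, CYP71A13, that could share its reads.

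The 250 bases before the annotated start were searched, on both strands, for 5 short motifs that are known cores of stress response elements: ACGTG of the abscisic acid responsive element, CCGAC of the dehydration responsive element, TGACG of TGA factors, TTGAC of the W-box and AAATATCT of the evening element. ACGTG and TGACG overlap where TGACGTG occurs. Sequences were read from the RefSeq genome of build TAIR10.1, whose exon lengths match the FPKM values in the files. 5 promoters are shown, with every match to the 5 motifs in capitals, 5′ to 3′ on the strand of the gene. The first 2 belong to larger rises with few overlapping libraries, the next 2 to cold and abscisic acid induced genes, and the last to an opposed gene.
AT2G37870 (chr2:15858954-15859203, plus strand)
AT2G37870: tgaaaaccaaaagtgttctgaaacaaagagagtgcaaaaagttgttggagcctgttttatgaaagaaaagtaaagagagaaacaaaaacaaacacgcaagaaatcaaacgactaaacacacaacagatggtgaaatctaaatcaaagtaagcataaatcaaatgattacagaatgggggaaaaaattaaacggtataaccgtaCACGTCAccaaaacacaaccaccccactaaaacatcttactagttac
SOUL-1 (chr2:15890619-15890868, plus strand)
SOUL-1: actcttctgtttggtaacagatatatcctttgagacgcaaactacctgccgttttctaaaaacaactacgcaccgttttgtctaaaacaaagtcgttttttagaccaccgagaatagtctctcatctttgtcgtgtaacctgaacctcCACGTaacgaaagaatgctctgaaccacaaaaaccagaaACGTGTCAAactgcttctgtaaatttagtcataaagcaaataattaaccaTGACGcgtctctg
KIN1 (chr5:5209467-5209716, plus strand)
KIN1: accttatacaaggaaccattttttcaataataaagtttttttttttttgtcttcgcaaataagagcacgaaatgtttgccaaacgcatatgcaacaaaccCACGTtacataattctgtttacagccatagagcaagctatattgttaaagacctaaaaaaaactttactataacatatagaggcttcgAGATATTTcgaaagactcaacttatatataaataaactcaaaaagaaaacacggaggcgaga
RD29A (chr5:21240467-21240716, plus strand)
RD29A: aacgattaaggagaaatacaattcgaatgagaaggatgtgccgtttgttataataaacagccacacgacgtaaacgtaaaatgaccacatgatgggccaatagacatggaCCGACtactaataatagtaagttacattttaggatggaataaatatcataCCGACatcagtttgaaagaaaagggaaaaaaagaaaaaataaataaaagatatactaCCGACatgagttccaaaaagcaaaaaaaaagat
AT4G10270 (chr4:6374484-6374733, plus strand)
AT4G10270: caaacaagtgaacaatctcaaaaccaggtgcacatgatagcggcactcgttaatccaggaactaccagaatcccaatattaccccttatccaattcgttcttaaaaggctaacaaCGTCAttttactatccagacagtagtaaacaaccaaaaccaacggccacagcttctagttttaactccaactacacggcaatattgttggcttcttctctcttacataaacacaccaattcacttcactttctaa

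RD29A held CCGAC at 3 places, and SOUL-1 held ACGTG at 2, while AT4G10270 held a single TGACG. For 4 of the 5 motifs the share was lower among larger rises in d14 than among the other shared rises, with no test run. ACGTG stood in 30.8% of the 120 called promoters and 35.6% of the 587 others, against 22.9% of 27444 protein-coding genes, and TGACG in 24.2%, 28.3% and 18.6%. CCGAC was in 12.5%, 13.8% and 12.0%, TTGAC in 51.7%, 51.8% and 44.9%, and AAATATCT in 9.17%, 7.67% and 4.79%. In the abscisic acid response list ACGTG was in 13 of 19 promoters, in the suberin list in 5 of 14, and TGACG was in 16 of the 29 of the detoxification list. These matches describe letters in a window of fixed length and show no binding.

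With library totals 21 shared falls differed, against 120 shared rises, but with DESeq2's own size factors falls outnumbered rises (96 and 69). Falls numbered 39 with TMM and 41 with DESeq2 on library totals. AT5G05430, which encodes an RNA-binding protein, had 1, 1.04, 0.935 and 0.899 FPKM in d14 zaxinone libraries and 23.7, 23.5996, 27.6 and 24.8 in d14 mock libraries. In max2, AT5G05430 had 2.51, 1.47, 2.16 and 1.35 FPKM in zaxinone libraries and 20.4, 22.6, 21.5 and 18.9 in mock libraries. The mock libraries of d14 all lay above those of max2, the zaxinone libraries of d14 all lay below those of max2, and the difference was -1.21 ± 0.26 (adjusted p = 0.01). AT3G27950, a lipase of the GDSL family, had 0.682, 0.681, 0.882 and 1.01 FPKM in d14 zaxinone libraries and 13.4, 11.6, 11.9 and 13.5 in d14 mock libraries. In max2, AT3G27950 had 2.69, 1.62, 2.58 and 2.57 FPKM in zaxinone libraries and 16, 17.5, 13.6 and 20.7 in mock libraries. The difference was -1.12 ± 0.26 (adjusted p = 0.016). AT1G44010, a transmembrane protein gene, had 0.121, 0.145, 0.0236 and 0.0548 FPKM in d14 zaxinone libraries and 11, 12.8, 9.32 and 13.3 in d14 mock libraries. In max2, AT1G44010 had 0.217, 0.285, 0.231 and 0.406 FPKM in zaxinone libraries and 9.67, 11.1, 9.45 and 12.3 in mock libraries. Its mock levels overlapped, its zaxinone levels did not, and the fall was -7.00 ± 0.33 in d14 and -5.21 ± 0.28 in max2, a difference of -1.79 ± 0.44 (adjusted p = 0.0175). These 3 calls held with each library left out, and those of AT3G27950 and AT1G44010 were lost with limma on log2(FPKM + 1).

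Among the other falls, GLR2.3, a glutamate receptor-like channel, had 2.02, 1.18, 1.77 and 2.36 FPKM in d14 zaxinone libraries and 28.7, 29.6, 33 and 22.9 in d14 mock libraries. In max2, GLR2.3 had 5.33, 4.38, 8.46 and 3.62 FPKM in zaxinone libraries and 30.7, 40.5, 41.5 and 26.8 in mock libraries. Its difference of -1.28 ± 0.34 (adjusted p = 0.0241) was lost without 1 library (adjusted p = 0.0511 without max2 zaxinone replicate 3). HR1, a homolog of the RPW8 mildew resistance proteins, differed by -1.48 ± 0.47 (adjusted p = 0.0481), lost in 12 of the 16 fits that left out 1 library, with an adjusted p of up to 0.1 without max2 zaxinone replicate 1 and a difference of -1.44 (adjusted p = 0.0768) without d14 zaxinone replicate 1. UMAMIT35, of an amino acid transporter family, differed by -1.84 ± 0.49 (adjusted p = 0.0241), lost without 2 libraries, with an adjusted p of up to 0.0574 without max2 zaxinone replicate 1. The non-coding RNA AT2G35637, which overlaps a gene on the other strand, differed by -1.37 ± 0.36 (adjusted p = 0.0241) and lost its call without 1 library (adjusted p = 0.0546 without max2 mock replicate 3), and the amidotransferase-like gene AT1G66860 differed by -1.99 ± 0.63 (adjusted p = 0.046), lost in 13 of the 16 fits that left out 1 library, with an adjusted p of up to 0.102 without max2 zaxinone replicate 1.

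A family of proteins with a cysteine and histidine rich C1 domain gave 5 of the 21 larger falls. All 33 of its tested members were lower in both mutants, and 5 (15.2%) fell by more in d14, against 4.29% of all shared falls. AT3G27480 had 0.0858, 0.112, 0.0671 and 0.146 FPKM in d14 zaxinone libraries and 1.17, 1.13, 0.995 and 1.33 in d14 mock libraries. In max2, AT3G27480 had 0.18, 0.304, 0.196 and 0.189 FPKM in zaxinone libraries and 0.937, 0.771, 0.591 and 1.1 in mock libraries. The difference of -1.54 ± 0.40 (adjusted p = 0.021) held with each library left out. AT2G37780, AT2G44390, AT1G55700 and AT5G40590 differed by -1.10, -0.99, -0.95 and -0.75, and their calls were lost in 7, 7, 10 and 3 of the 16 fits. The family was picked after its values were seen and many members are near copies, so this count is a description.

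Genes of the low oxygen response stood in the tables of both mutants in 2 cases, 1 lower in both and 1 opposed. Roots in solution can run short of oxygen, and factors such as HRE1 then raise fermentation genes. In the authors' deposited tables, 12 of 20 genes of this list were lower and none higher in d14, while 1 was lower and 5 were higher in max2. A listing in 1 table and not in the other is no test of a difference. Only HRE1 and AT4G10270 stood in both. HRE1 had 26.8, 41.7, 31.4 and 26.8 FPKM in d14 zaxinone libraries and 255, 299, 189 and 262 in d14 mock libraries. In max2, HRE1 had 55.8, 32.4, 49 and 57.8 FPKM in zaxinone libraries and 175, 190.4, 179.9 and 191 in mock libraries. Zaxinone and mock did not overlap in either mutant, and the fall was -2.99 ± 0.20 in d14 and -1.92 ± 0.19 in max2, a difference of -1.07 ± 0.26 (adjusted p = 0.0175) that held with each library left out.

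AT4G10270, a gene of the wound-responsive family that low oxygen induces, had 16.6, 17.9, 8.01 and 9.3 FPKM in d14 zaxinone libraries and 60.1, 71, 10.9 and 35.4 in d14 mock libraries. In max2, AT4G10270 had 57.4, 7.15, 26.1 and 37.8 FPKM in zaxinone libraries and 9.98, 6.95, 6.39 and 14.2 in mock libraries. In both mutants the 2 treatments overlapped: d14 mock replicate 3 was near the zaxinone libraries, and max2 zaxinone replicate 2 was near the mock libraries. The difference was -3.54 ± 0.75 (adjusted p = 0.01). It was -3.87 (adjusted p = 0.00248) without d14 mock replicate 3 and -3.88 (adjusted p = 0.00139) without max2 zaxinone replicate 2. The same libraries were low across the list. All 12 genes listed in d14 had the lowest level of their mock group in d14 mock replicate 3, and all 6 listed in max2 had the lowest level of their zaxinone group in max2 zaxinone replicate 2. In d14, ADH1, alcohol dehydrogenase, had 98.7, 132, 306 and 219 FPKM with zaxinone and 1247, 1074, 315 and 619 with mock. In max2, HRE2, a relative of HRE1, had 6.51, 0.695, 8.73 and 14.1 FPKM with zaxinone and 0.696, 0.269, 0.372 and 0.407 with mock. What sets these 2 libraries apart within their groups was not tested.

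Of the other genes lower in d14 and higher in max2, 4 had the lowest level of those groups in the same libraries. AT3G29970, which encodes a B12D protein, had the largest negative difference, -7.01 ± 1.32 (adjusted p = 0.0057). It had 0.928, 0.623, 1.79 and 4.27 FPKM in d14 zaxinone libraries and 30.9, 14.2, 0.712 and 6.18 in d14 mock libraries. In max2, AT3G29970 had 28.8, 3.66, 58 and 39.3 FPKM in zaxinone libraries and 3.19, 0.861, 0.218 and 2.55 in mock libraries. SRO4, of the RCD1-like family, had 0.0126, 0.121, 0.28 and 0.0856 FPKM in d14 zaxinone libraries and 1.7, 1.15, 0.0243 and 0.783 in d14 mock libraries. In max2, SRO4 had 2.93, 0.13, 2.77 and 3.17 FPKM in zaxinone libraries and 0.305, 0.182, 0.0671 and 0.0877 in mock libraries. The difference was -6.66 ± 1.3 (adjusted p = 0.00691). The max2 zaxinone libraries of SRO4 lay above all max2 mock libraries except for replicate 2, at 0.13 FPKM.

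AT1G77150, a pentatricopeptide repeat gene, had 1.39, 0.318, 1.16 and 0.81 FPKM in d14 zaxinone libraries and 5.83, 6.05, 0.383 and 1.26 in d14 mock libraries. In max2, AT1G77150 had 5.95, 0.426, 8.33 and 6.17 FPKM in zaxinone libraries and 1.53, 0.695, 0.441 and 1.12 in mock libraries. The difference was -4.27 ± 1.08 (adjusted p = 0.0194). AT1G04107, a transcribed region with no named function, had 13.2, 14.5, 10.4 and 10.7 FPKM in d14 zaxinone libraries and 50.6, 41.8, 10.3 and 19.7 in d14 mock libraries. In max2, AT1G04107 had 59.5, 9.77, 37.1 and 45.1 FPKM in zaxinone libraries and 15.6, 6.31, 10.2 and 13.9 in mock libraries. The difference was -3.04 ± 0.66 (adjusted p = 0.01). In both, d14 mock replicate 3 and max2 zaxinone replicate 2 were again the lowest of their groups. AT1G67270, a zinc finger gene, had 0.314, 0.139, 0.252 and 0.214 FPKM in d14 zaxinone libraries and 0.586, 0.545, 0.583 and 0.386 in d14 mock libraries. In max2, AT1G67270 had 1.71, 0.479, 0.804 and 1.3 FPKM in zaxinone libraries and 0.555, 0.576, 0.298 and 0.222 in mock libraries. The difference was -2.56 ± 0.55 (adjusted p = 0.01). Here all 4 d14 mock libraries lay above all 4 d14 zaxinone libraries.

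The other 2 opposed genes went the other way, higher in d14 and lower in max2. HEC1, a basic helix-loop-helix factor known from carpel development, had 0.149, 0.268, 0.203 and 0.219 FPKM in d14 zaxinone libraries and 0.0321, 0.121, 0.0717 and 0.0856 in d14 mock libraries. In max2, HEC1 had 0.134, 0.0319, 0.0425 and 0.0156 FPKM in zaxinone libraries and 0.136, 0.244, 0.182 and 0.197 in mock libraries. These levels rest on 12 to 18 counts in d14 zaxinone and 3 to 8 in d14 mock libraries, against 1 to 9 in max2 zaxinone and 10 to 16 in max2 mock libraries, and the difference was 3.16 ± 0.72 (adjusted p = 0.0137). AT4G25433, with a LysM domain, had 2.42, 1.4, 1.05 and 0.71 FPKM in d14 zaxinone libraries and 0.487, 0.993, 0.605 and 0.739 in d14 mock libraries. In max2, AT4G25433 had 0.676, 0.78, 1.05 and 0.842 FPKM in zaxinone libraries and 2.41, 1.7, 1.7 and 2.97 in mock libraries. The difference was 2.39 ± 0.49 (adjusted p = 0.01). With voom the calls of SRO4 and AT1G77150 were lost, and that of AT1G77150 also with limma on log2(FPKM + 1) and with 1 of the replicate blocks. All 8 calls held with each library left out, with adjusted p up to 0.0493. Zaxinone and mock overlapped for 6 of the 8 in d14 and for 5 of the 8 in max2. By comparison, 120 of 120 called and 573 of 587 uncalled shared rises (97.6%) had no overlap in d14. In max2, 116 of 120 called (96.7%) and 557 of 587 uncalled shared rises (94.9%) had none. Col-0 listed 4 of the 8, all lower, and kai2 listed 1, lower, in the authors' deposited tables.

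**Figure D4:**
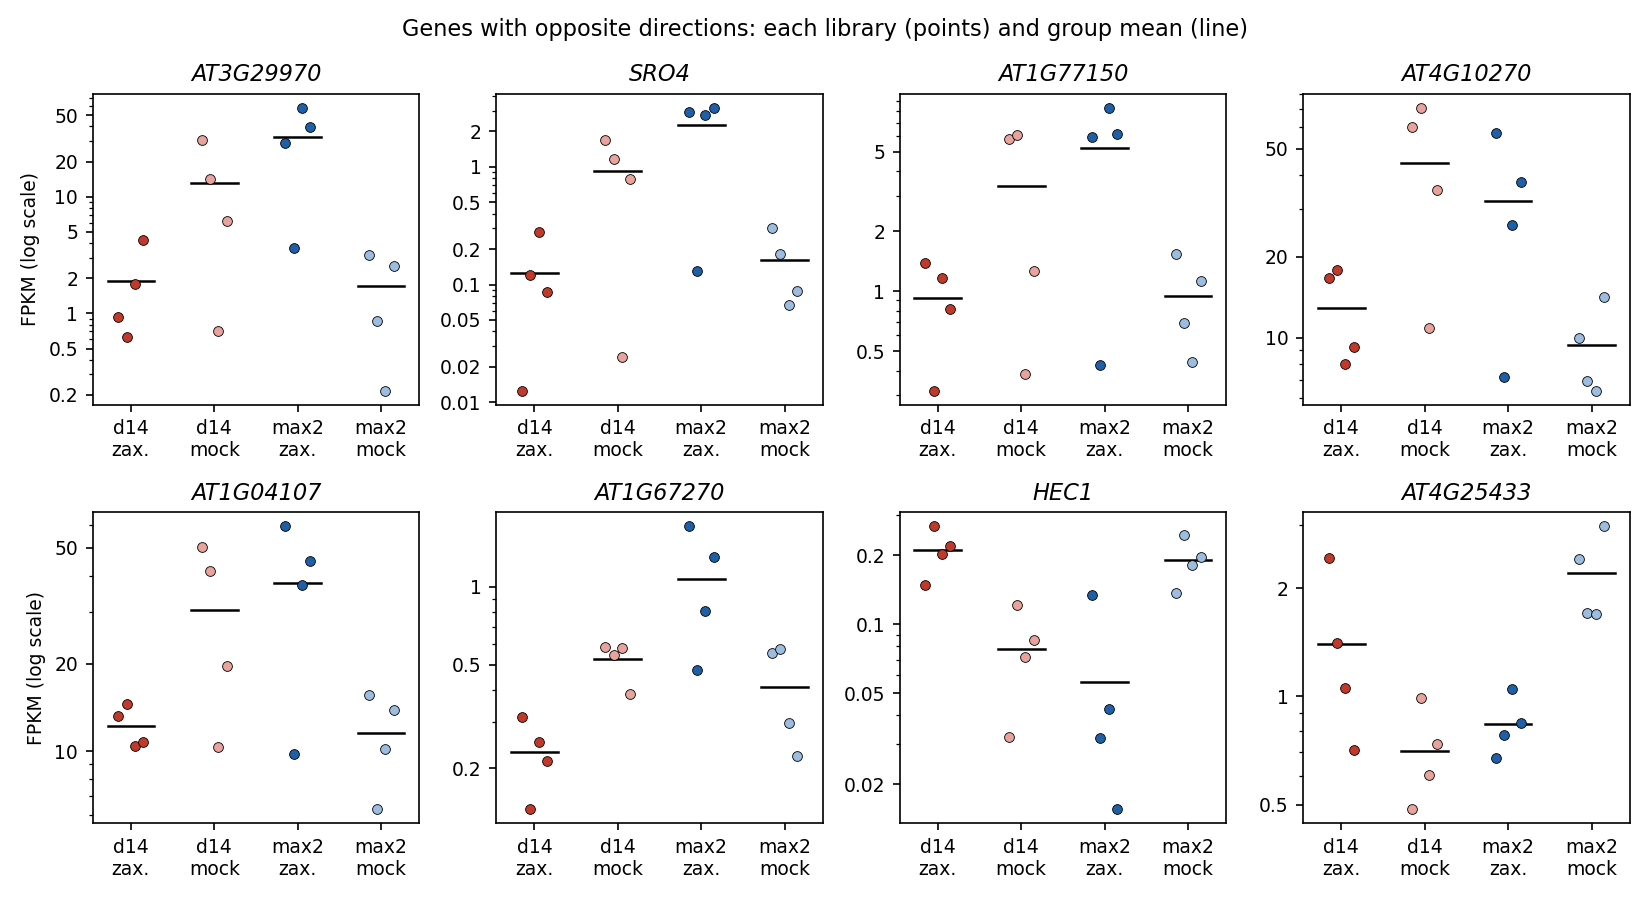
FPKM on a log scale in each library of d14 zaxinone, d14 mock, max2 zaxinone and max2 mock (points) with the group mean (line) for the 8 genes with opposite directions. In SRO4, AT3G29970, AT1G77150, AT4G10270 and AT1G04107, replicate 2 of max2 zaxinone and replicate 3 of d14 mock are the lowest of their groups.

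The remaining gene lists held no called member, or none in both tables. Over all genes tested 149 of 1205 (12.4%) were called, so an absence of calls in lists this small says little about them. Ethylene, auxin, gibberellin and root hair lists had no gene in both tables. In the phosphate starvation list none of 3 passed, with the acid phosphatase PAP17 at 0.70 ± 0.38 (adjusted p = 0.242) and the pyrophosphatase PS2 at -0.53 ± 0.52 (adjusted p = 0.578). In the iron list none of 4 passed and all 4 differences were negative (median -0.61). The sign stood for a smaller fitted rise in d14 for the 3 genes higher in both mutants, and for a larger fitted fall for YSL1. Over all shared rises the fitted rise was larger in d14 for 83.3%, and over all shared falls the fitted fall for 76.9%. The transporters YSL1 and OPT3 were at -0.82 ± 0.56 (adjusted p = 0.38) and -0.40 ± 0.29 (adjusted p = 0.397). The sulfate transporter SULTR1;1 had -0.60 ± 0.22 (adjusted p = 0.0802) and LSU1, a gene of sulfur shortage, 0.83 ± 0.86 (adjusted p = 0.603), and neither of the 2 sulfur genes passed. Of 2 nitrate genes, NRT2.1, the high affinity transporter, had 1.24 ± 0.52 (adjusted p = 0.128) and the plastid enzyme gene G6PD3 -0.50 ± 0.23 (adjusted p = 0.157).

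None of 5 glucosinolate genes passed, where 12.4% of all genes tested did. CYP81F4 was at 0.95 ± 0.36 (adjusted p = 0.0941) and the β-glucosidase BGLU23 at 0.82 ± 0.34 (adjusted p = 0.115). Heat shock genes gave no call among 7, with DREB2A, a drought and heat factor, at 0.72 ± 0.32 (adjusted p = 0.148) and HSFC1 at 0.43 ± 0.21 (adjusted p = 0.196). The cytokinin genes IPT5 and CYP735A2, of hormone synthesis, were at 0.52 ± 0.31 (adjusted p = 0.294) and -0.40 ± 0.26 (adjusted p = 0.362), with no call among 5. Mitochondrial stress genes gave none among 3, AOX1A, alternative oxidase, being at 0.54 ± 0.23 (adjusted p = 0.128) and NAC053 at 0.41 ± 0.19 (adjusted p = 0.157). The aquaporins PIP2;6 and NIP1;1 were at 1.34 ± 0.57 (adjusted p = 0.132) and -0.72 ± 0.33 (adjusted p = 0.162), and the triterpene genes THAH and THAD at 1.24 ± 0.51 (adjusted p = 0.114) and 0.60 ± 0.74 (adjusted p = 0.676), with no call among 2 and 3.

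None of the genes named from the lists of jasmonate, cell wall loosening, clock, flavonoid, phenylpropanoid and root cell type genes passed. Their differences were those of JAZ7 (-0.27) and CYP94B1 (0.15) of jasmonate, XTH24 of the cell wall (0.05), LNK1 (0.42) and ELF4 (-0.03) of the clock, F3H of flavonoid synthesis (0.12), PAL3 (-0.48) and FAH1 (-0.11) of phenylpropanoids and WOX5 (0.04); adjusted p ran from 0.271 to 0.976. A p above the threshold does not show that the mutants acted alike: their approximate standard errors ran from 0.25 to 0.81 on the log2 scale.

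**Figure D5:**
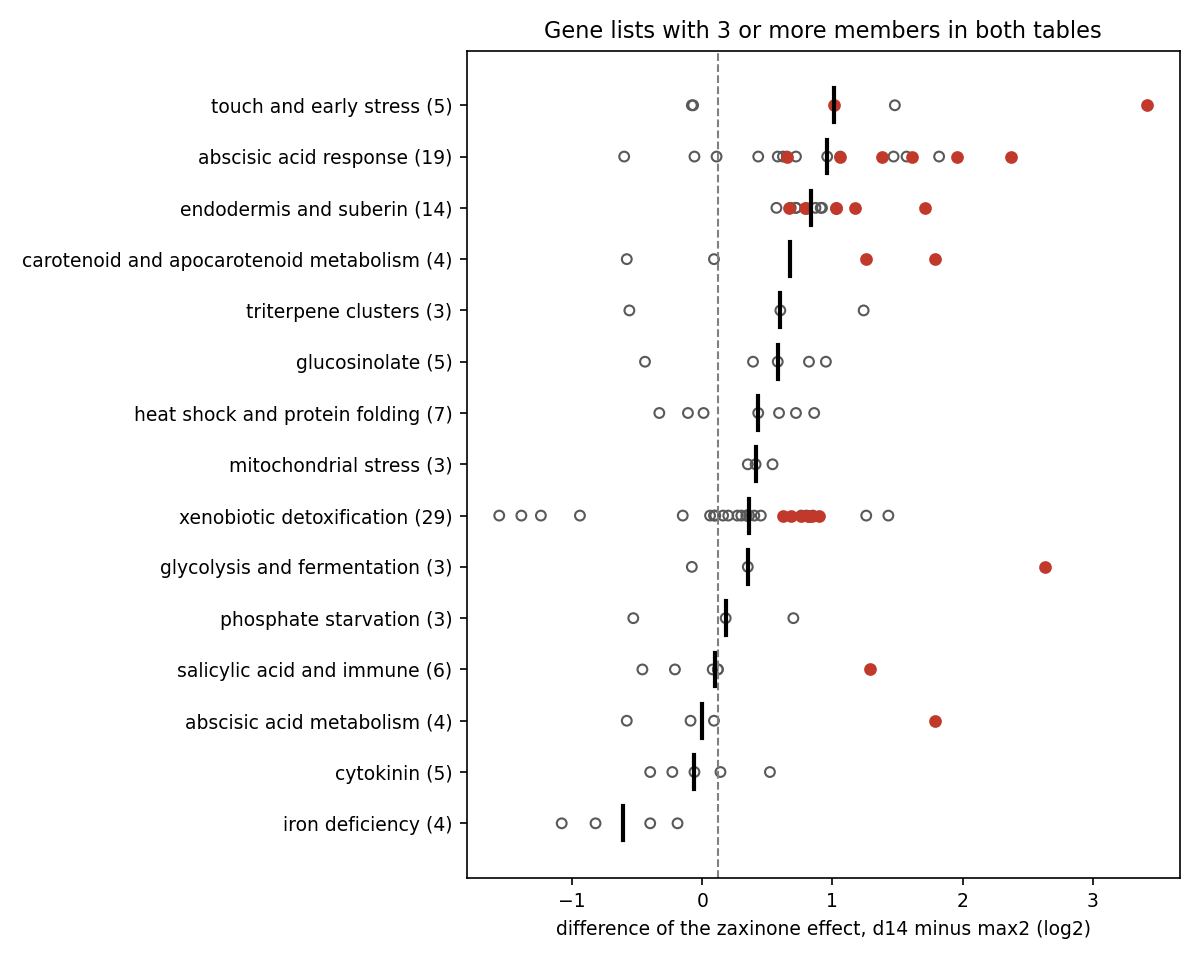
Difference of the zaxinone effect, d14 minus max2 (log2), for each member (circle) of the gene lists with at least 3 members tested, whose number stands in brackets. Filled red circles passed an adjusted p of 0.05, black bars are list medians and the dashed line is the median of all 1205 genes at 0.12. Suberin, abscisic acid response and touch genes have medians of 0.83, 0.96 and 1.01. All members of these 3 lists were shared rises, and the median over all shared rises was 0.47.

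The authors' fold changes in the wild type Col-0 and in kai2, which come from other libraries, place the called genes. Of the 120 larger rises, 112 were listed in Col-0, all higher, and the Col-0 log2 fold change was nearer to that of max2 than to that of d14 for 100 of them (89.3%), in the authors' deposited tables. Among shared rises that were not called the count was 288 of 436 (66.1%). In kai2 111 of the 120 were listed, all higher, and 85 (76.6%) were nearer to max2, against 230 of 423 (54.4%) not called. The called genes were chosen for a high d14 or a low max2 value, so these shares are not independent of the choice. NCED3 went against it, with authors' log2 fold changes of 3.80 in d14, 2.02 in max2, 3.92 in Col-0 and 4.42 in kai2. The 21 larger falls were all listed lower in Col-0 and kai2, and 9 of the 21 (42.9%) were nearer to max2 in each. Among shared falls that were not called the shares were close to this, 47.7% for Col-0 and 48.7% for kai2. Over the 106 called rises in all 4 tables the authors' median was 2.96 in d14, 1.77 in max2, 1.96 in Col-0 and 2.24 in kai2.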

How the data were processed

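Poly(A) RNA of Arabidopsis roots was sequenced as paired-end fragments, and HISAT2 and StringTie are named, without versions, in the submitters' processing notes. The deposited tables hold, per the file headers, raw counts per gene, the authors' FPKM, normalized counts (a signal: each count divided by 1 factor per library), the authors' log2 fold change of zaxinone over mock, and the authors' adjusted p-value. Each table lists only genes with an adjusted p under 0.05 and a log2 change of at least 1, so genes that changed in 1 mutant alone are not analysed here. The genome build is not given in the sources used here; exon lengths of TAIR10.1 (RefSeq) return 1 library total per library from the counts and FPKM, and these totals served as library sizes.

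Deposited counts of the 16 libraries (4 in each of 4 groups) were fitted with edgeR 4.0.16 (quasi-likelihood test, R 4.3.3) with the terms genotype, treatment and their product, over genes with at least 10 counts in at least 4 libraries. P-values were adjusted over all 1205 genes (Benjamini-Hochberg, threshold 0.05). Errors are approximate standard errors, worked back from the test as the absolute log2 value divided by the square root of its F statistic. Log2 values and adjusted p-values in the text are from this fit unless the authors' deposited tables are named. DESeq2 1.42.0, limma 3.58.1 (voom, and log2(FPKM + 1) with a pseudocount of 1), other scalings, filters, blocks and each library left out in turn were the alternatives. The fit was tested on simulated data.

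The text names the 15 largest called differences in each direction with a mean of at least 1 FPKM in a group, called genes of opposite direction, up to 4 called members of each of 31 gene lists, or up to 2 members of lists with none, and strigolactone and karrikin genes wherever listed. The members and lists were chosen with earlier results of these data known. Of 805 list symbols 29 had no match.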

Additional observations from a re-analysis of the deposited data

Results flagged for a closer look

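In 24 of 300 groups of 4 libraries (8.00%; chance gives about 1 in 20), the highest or lowest library of a named gene stood far from the other 3. These groups come from the same 16 libraries and are not independent, so the share is no test against chance. Library d14 zaxinone replicate 1 was the odd one for 7 genes, high each time: SOUL-1 (33.9 FPKM), AT1G52342 (72.4), HAI1 (28.1), LSU1 (1.42), ZAT12 (230.2), NIP1;1 (5.80) and XTH24 (577). In d14 zaxinone replicate 2, RD29A (9.18 FPKM) and DREB2A (14.7) were low, and PAL3 was low in replicate 3 (0.641). In d14 mock replicate 4, FLP1 (0.939 FPKM), CYP94B1 (0.590), NIP1;1 (32.5) and THAH (3.12) were high, as were NRT2.1 in replicate 2 (13.9) and AT5G19880 in replicate 3 (0.170).

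In max2 zaxinone replicate 2, SRO4 (0.130 FPKM) and AT3G27950 (1.62) were low and AT3G27480 (0.304) was high. In max2 mock libraries, PSBO2 (1.08 FPKM) and FAH1 (23.1) were high and DREB2A (5.36) was low in replicate 4, HSFC1 was low in replicate 2 (3.98) and NIP1;1 was high in replicate 1 (27.1).

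The zaxinone effect went in opposite directions in the mutants for 8 genes, with a difference d14 minus max2 past the threshold of edgeR's test: AT3G29970 (-7.01), SRO4 (-6.66), AT1G77150 (-4.27), AT4G10270 (-3.54), AT1G04107 (-3.04), AT1G67270 (-2.56), AT4G25433 (2.39) and HEC1 (3.16) on the log2 scale.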

How the results depend on the processing

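All 149 called differences kept their sign under every alternative run, apart from the 50-count filter, which kept 143 of them with that sign and left out the others. Calls were less stable than signs: of the 46 named genes called, 18 kept their call in every setting that tested them and 28 lost it in at least 1. Voom lost 16 of the 46, log2(FPKM + 1) 13, each replicate block 10, DESeq2's own size factors 4 and TMM 3. The total was 90 with an absolute log2 difference of at least 1 and 94 with voom. Larger rises in d14 numbered 69 with that size threshold, 69 with DESeq2's own size factors and 71 with voom. Larger falls numbered 13 with the size threshold, 39 with TMM, 41 with DESeq2 on library totals and 96 with its own size factors. Same-direction genes called larger in max2 numbered 1 with DESeq2 on library totals (AT5G39080), 2 with its own size factors and 2 with limma on log2(FPKM + 1) (AT5G39080, AT4G21870). They numbered 1 each without d14 mock replicate 2 (NRT2.1) and replicate 4 (AT5G39080). With the size threshold the mutants differed for 70 genes in zaxinone and 57 in mock libraries. The causes were not tested. With each library left out in turn the total ran from 64 to 171, rises from 47 to 133, falls from 7 to 30, genes larger in max2 from 0 to 1, the zaxinone contrast from 154 to 339 and the mock contrast from 25 to 193.

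Deviations of libraries with the same replicate number had correlations from -0.224 to 0.287, within the range of other pairs (-0.345 to 0.337). With 4 libraries a group, this cannot show whether the numbers pair samples, and the labels do not say. With the replicate block the total was 110, and with the replicate block within genotype it was 90, with 68 larger rises.

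The differences that changed sign were those of uncalled genes near 0. JAZ7 was 0.060 with log2(FPKM + 1). CYP94B1 was -0.025 with DESeq2's own size factors, -0.057 with log2(FPKM + 1) and -0.216 to 1.425 with a library left out. XTH24 was -0.105 with TMM, -0.287 with DESeq2's own size factors, -0.146 with voom, -0.007 and -0.154 with the 2 replicate blocks, -0.135 with log2(FPKM + 1) and -0.483 to 0.210 with a library left out. WOX5 was -0.076, -0.234, -0.014, -0.023 and -0.019 with TMM, own size factors, the 2 replicate blocks and log2(FPKM + 1), and -0.165 to 0.246 with a library left out. F3H was -0.117 with own size factors and -0.177 to 0.463 with a library left out, ELF4 ran from -0.153 to 0.142, and FAH1 from -0.349 to 0.004. Depth limits HEC1, CBF3 and other genes with few counts a library.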
